A study of Mus musculus with 4 samples.

Results

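The glutathione peroxidases were examined in lung tumours of mice lacking Nrf2 and of wild-type mice. The members are the 6 genes Gpx1, Gpx2, Gpx3, Gpx4, Gpx7 and Gpx8, picked by gene symbol from 35275 identifiers in the table. All 6 passed the filter on low values (2 or more libraries at 1 FPKM or above), as did 13147 genes in all. FPKM is the number of reads per kilobase of gene length and per M reads of the library (1 M is 1e6). Of the 8 numbered Gpx genes in the table, Gpx5 and Gpx6 were not members. Gpx5 was listed at 0 in all 4 libraries, and Gpx6 held 1 read, in the second knockout library.

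The knockout group consists of 2 samples of genotype Nrf2 -/- and the wild-type group of 2 samples of genotype Nrf2 +/+, all from Balb/c mice. Both groups received vinyl carbamate, a chemical carcinogen that causes lung tumours in mice, in 2 or 4 doses of 16 mg/kg. Lung tumours were taken 40 to 44 weeks after the start, and each sample pooled 3 to 4 of them, so that no group is free of carcinogen and none is normal lung. The labels do not tie a number of doses, weeks or tumours to a sample, and they do not name the exons that the knockout allele lacks or the age of the mice at the start.

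Glutathione peroxidases reduce hydrogen peroxide and organic hydroperoxides to water and alcohols, with electrons from glutathione, which glutathione reductase then regenerates at the expense of NADPH. Most members carry selenocysteine at the active site, an amino acid that is inserted at a UGA codon, while Gpx7 and Gpx8 carry cysteine there. NRF2, encoded by Nfe2l2, pairs with small MAF proteins on antioxidant response elements and switches on many genes of glutathione metabolism. Gpx2, best known from the gut epithelium and also made in airway epithelium, is a textbook target of NRF2.

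The active-site codon sorts the members into the selenium and the cysteine enzymes, and is shown for that reason. The lines give the coding strand around it, with 18 bases on each side, from the transcript sequences of GENCODE M21 (GRCm38), and capitals mark the codon. It is TGA in Gpx1, Gpx2, Gpx3 and Gpx4, where the annotation places a selenocysteine, TGT in Gpx7 and TGC in Gpx8.
Gpx1: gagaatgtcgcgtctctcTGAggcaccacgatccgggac
Gpx2: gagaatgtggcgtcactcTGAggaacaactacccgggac
Gpx3: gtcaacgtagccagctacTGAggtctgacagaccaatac
Gpx4: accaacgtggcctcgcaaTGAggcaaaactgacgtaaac
Gpx7: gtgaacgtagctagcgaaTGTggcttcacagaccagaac
Gpx8: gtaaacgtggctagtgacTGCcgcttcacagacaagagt

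The values imply library totals of 17.98 and 16.89 M reads for knockout 1 and 2, and of 21.66 and 21.22 M reads for wild type 1 and 2. Nfe2l2 itself (chromosome 2, 75675513 to 75704641, GRCm38) held 129 and 98 reads in the knockout libraries, against 4092 and 3659 in the wild-type libraries. Surfactant protein C, the defining product of alveolar type 2 cells, had 90474 and 76027 FPKM in the knockout libraries and 75159 and 77718 FPKM in the wild-type ones. In limma on log2(FPKM + 1), called at a Benjamini-Hochberg adjusted p under 0.05, 15 of 13147 genes (0.114%) changed. That count was 221 without knockout 1 and 49 without knockout 2. The labels pool tumours into samples without saying how many mice gave them, so p-values measure the spread between these 4 samples.

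Among the members, Gpx2 fell in knockout tumours, and none of the other members was called. Thus 1 of 6 members was called lower, against a background of 0.038% of all tested genes, and 0 of 6 higher, against 0.0761%. At an unadjusted limma p under 0.05 there were 1 lower and 1 higher (Gpx3), where 7.01% and 8.36% of all genes passed. The members' median log2 fold change was 0.18, against -0.00 over all tested genes. The members were listed with earlier results of these data in view.

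Gpx2 (ENSMUSG00000042808, chromosome 12, 76792333 to 76795554, minus strand) encodes a cytosolic selenium enzyme of epithelia. It was at 1.46 and 1.28 FPKM in knockout 1 and 2, against 9.3 and 9.89 FPKM in wild type 1 and 2. Both knockout libraries lay far below both wild-type libraries, and the libraries of each genotype lay close together. The means were 1.37 ± 0.13 FPKM in knockout and 9.6 ± 0.417 FPKM in wild-type tumours (SD, n = 2 each), a ratio of 0.143. On the log2(FPKM + 1) scale limma gave a change of -2.16 ± 0.13 (SE, adjusted p = 0.0108), which understates the change of a low gene. Among the tested genes it was the 7th most negative change and had the 3rd smallest p. In limma-voom on the reads recovered from the values, an alternative chosen after the data were seen, Gpx2 was at -2.79 ± 0.25 (SE, limma-voom adjusted p = 0.039). That fit called 6 genes (0.0456%), 4 of them lower (0.0304%). Over all alternatives to the first limma fit, limma-voom among them, the adjusted p of Gpx2 ran from 0.00199 to 0.21, both ends from limma. With no filter on low values Gpx2 kept its change of -2.16 and was not called (limma adjusted p = 0.21), and with a pseudocount of 10 its change was -0.79 and called.

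The depth behind Gpx2 was modest. Its knockout values rest on 28 and 23 reads and its wild-type values on 215 and 224 reads. Exact Poisson intervals at 95% ran from 0.97 to 2.11 and from 0.809 to 1.91 FPKM in knockout 1 and 2, and from 8.1 to 10.6 and from 8.64 to 11.3 FPKM in wild type 1 and 2. The intervals of the 2 genotypes do not overlap. Summed over libraries, 51 knockout and 439 wild-type reads gave a ratio per M reads of 0.143, with an exact 95% interval of 0.105 to 0.191. These intervals cover counting error only. The pseudogene Gpx2-ps1, a near copy that could share reads, held 0 and 0 reads in the knockout libraries and 0 and 1 in the wild-type libraries.

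The Gpx2 promoter is printed because this is the member that fell. It covers chr12:76795505-76795804 (GRCm38.p6, minus strand, RefSeq), from 250 bases before to 50 bases after the annotated start.
Gpx2 promoter: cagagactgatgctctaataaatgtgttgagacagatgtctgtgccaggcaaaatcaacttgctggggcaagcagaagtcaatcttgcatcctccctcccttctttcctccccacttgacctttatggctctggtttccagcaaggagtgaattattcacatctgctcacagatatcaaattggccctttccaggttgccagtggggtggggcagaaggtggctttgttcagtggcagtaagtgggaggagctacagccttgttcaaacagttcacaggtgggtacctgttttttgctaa
The core of the antioxidant response element, TGACNNNGC, was searched on both strands and was not found in this window, so no base is in capitals. It was also absent from the windows of the other members (1 each for Gpx1, Gpx3, Gpx7 and Gpx8, and 4 for Gpx4), and present in 12.4% of 32851 promoter windows of that length. The result concerns these letters in these windows only.

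**Figure D1:**
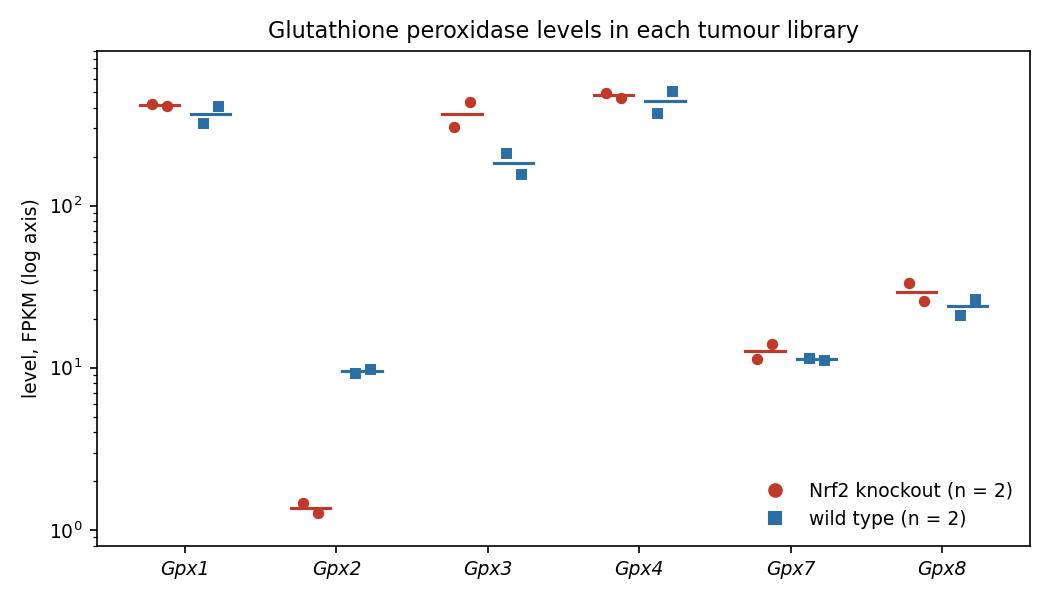
Level of each glutathione peroxidase in FPKM (vertical log axis) in the 2 knockout libraries (red circles) and the 2 wild-type libraries (blue squares), with a line at each group mean. Gpx2 lies at 1.28 to 1.46 FPKM in knockout and at 9.3 to 9.89 FPKM in wild type, Gpx3 lies higher in both knockout libraries, and the other members lie close together or overlap.

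Gpx1 (chromosome 9, 108338903 to 108340343, plus strand) encodes the ubiquitous cytosolic and mitochondrial enzyme. It was at 420 and 411 FPKM in knockout tumours and at 321 and 408 FPKM in wild-type tumours. The knockout libraries lay above, but knockout 2 and wild type 2 were almost level. Its log2 fold change was 0.20 ± 0.16 (SE, limma adjusted p = 0.584), and the 95% interval ran from -0.18 to 0.58. Red blood cells are rich in this enzyme, and 5 of 6 erythroid markers (Slc4a1 was under 1 FPKM in every library) were tested. The erythroid list summed to 1194 and 1094 FPKM in the knockout libraries and to 247 and 490 FPKM in the wild-type ones, with no marker at 0. Of the 5 tested, 0 were called. All 5 were higher at an unadjusted limma p under 0.05, against 8.36% of all tested genes. For all 5, both knockout libraries lay above both wild-type libraries, against 22.7% of all tested genes. The part of this list in the Gpx1 values was not tested.

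Gpx3 (chromosome 11, 54902453 to 54910377, plus strand) encodes the secreted plasma enzyme. It was at 303 and 432 FPKM in knockout 1 and 2, against 212 and 156 FPKM in wild type 1 and 2. Both knockout libraries lay above both wild-type libraries, with a wide spread within each genotype. The means were 367 ± 91.7 FPKM in knockout and 184 ± 39.6 FPKM in wild-type tumours (SD, n = 2 each), a ratio of 1.99. Gpx3 was not called, with a log2 fold change of 0.99 ± 0.22 (SE, limma unadjusted p = 0.00427, adjusted p = 0.165). The 95% interval of 0.44 to 1.53 is not adjusted for the number of genes. Non-overlap in this direction, found for Gpx1 and Gpx3, was seen for 22.7% of all tested genes, and non-overlap in the other, found for Gpx2, for 25.4%.

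The sums of fibroblast, endothelial and airway markers, like Gpx3, were lowest in wild type 2 and highest in knockout 2. Between knockout 1 and wild type 1 the order differed, since Gpx3 and the airway sum were higher in knockout 1 and the fibroblast and endothelial sums lower. The ciliated, T cell and B cell sums, given below, were also lowest in wild type 2 and highest in knockout 2. Like the airway sum, they had the same order of libraries as Gpx3. Fibroblast markers (7 of 8 tested, Lum under 1 FPKM) summed to 336 and 547 FPKM in knockout 1 and 2, against 346 and 234 FPKM in wild type 1 and 2. Endothelial markers (6 of 6 tested) summed to 108 and 176 FPKM in the knockout libraries and to 130 and 68 FPKM in the wild-type ones. Airway secretory markers (8 of 10 tested, Agr2 under 1 FPKM) summed to 2194 and 3389 FPKM in the knockout libraries and to 1863 and 825 FPKM in the wild-type ones. No marker of these lists was at 0, and their part in the Gpx3 values was not tested. In pooled tumours, fewer cells of a type and less RNA per cell cannot be told apart, for Gpx3 as for every other member.

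**Figure D2:**
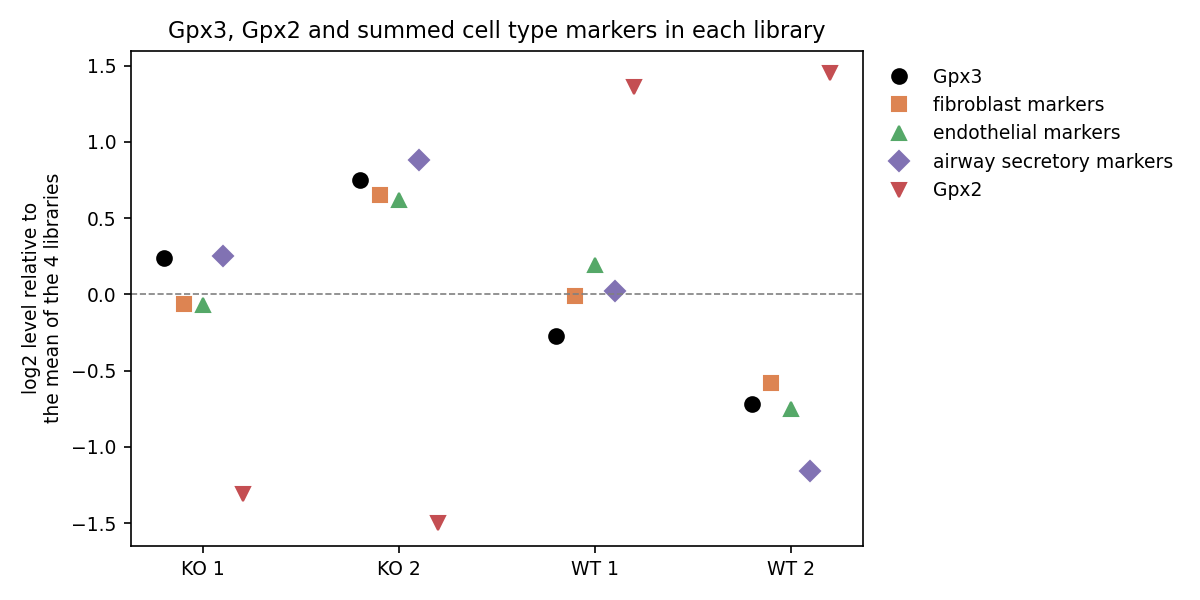
Log2 level relative to the mean of the 4 libraries (vertical axis) of Gpx3, Gpx2 and the summed FPKM of 3 of the 12 marker lists in each library (horizontal axis). Gpx3 runs from -0.72 in wild type 2 to 0.75 in knockout 2. The fibroblast sum runs from -0.58 to 0.65 in the same libraries. Gpx3 and Gpx2 both separate the genotypes, Gpx3 at 0.24 and 0.75 in knockout against -0.27 and -0.72 in wild type. Gpx2 lies at -1.31 and -1.50 in knockout, against 1.36 and 1.45 in wild type.

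The airway secretory list was split. None of its 8 tested markers was called. At an unadjusted limma p under 0.05, 4 were higher and 2 lower in knockout tumours, against 8.36% and 7.01% of all tested genes. For 4 of the 8 both knockout libraries lay above both wild-type libraries, against 22.7% of all tested genes. For 2 they lay below, as for Gpx2, against 25.4% of all tested genes. The sum was mostly Scgb1a1. This gene, the secretoglobin of club cells, was at 1996 and 3099 FPKM in knockout and at 1709 and 723 FPKM in wild-type tumours. Alveolar type 2 markers (8 of 8 tested) summed to 117863 and 102236 FPKM in the knockout libraries and to 105940 and 106538 FPKM in the wild-type ones, with no marker at 0. All 4 basal cell markers (Krt5, Krt14, Trp63 and Ngfr) were under 1 FPKM in every library. Ciliated cell markers (4 of 6 tested, Tekt1 and Dnah5 under 1 FPKM) summed to 37 and 40.9 FPKM in knockout 1 and 2, against 28.5 and 16.8 FPKM in wild type 1 and 2. Alveolar type 1 markers (5 of 5 tested) summed to 1163 and 1067 FPKM in knockout and to 1176 and 1234 FPKM in wild-type tumours.

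Immune cells also carry Gpx1 and Gpx4, and their markers summed higher in the knockout libraries, with the macrophage sum mostly Lyz2. Macrophage markers (8 of 8 tested, 0 called, 0 higher and 1 lower at an unadjusted limma p under 0.05) summed to 17831 and 13138 FPKM in knockout 1 and 2, against 10488 and 9825 FPKM in wild type 1 and 2, most of it from Lyz2, the lysozyme gene. Neutrophil markers (6 of 7 tested, Ly6g under 1 FPKM) summed to 99 and 114 FPKM in knockout and to 26.4 and 28.6 FPKM in wild-type tumours. Of the 6, 3 were called higher (limma, adjusted p under 0.05), against 0.0761% of all tested genes. T cell markers (7 of 8 tested, Cd8a under 1 FPKM) summed to 29.4 and 35.9 FPKM in knockout and to 13.1 and 12.4 FPKM in wild-type tumours. B cell markers (4 of 5 tested) summed to 65.7 and 78.4 FPKM in knockout and to 37.1 and 26.9 FPKM in wild-type tumours. None of the T cell or B cell markers was called. At an unadjusted limma p under 0.05, 6 of 6 neutrophil, 7 of 7 T cell and 3 of 4 B cell markers were higher. Of all tested genes, 8.36% were. No marker of these lists was at 0. Both knockout libraries lay above both wild-type libraries in each of these 4 sums. Of the 8 macrophage markers, Lyz2 alone lay so and 1 lay below, against 22.7% and 25.4% of all tested genes. The median log2 fold change of the macrophage list was 0.05. The part of these 4 lists in the values of the members was not tested.

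Gpx4 (chromosome 10, 80047166 to 80056439, plus strand) encodes the enzyme that reduces phospholipid hydroperoxides in membranes and thereby holds back ferroptosis. It was at 495 and 460 FPKM in knockout tumours and at 372 and 505 FPKM in wild-type tumours. The wild-type libraries enclosed both knockout libraries. Its log2 fold change was 0.14 ± 0.18 (SE, 95% interval -0.30 to 0.57, limma adjusted p = 0.755), and it was -0.08 without wild type 1 and 0.36 without wild type 2.

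Gpx7 and Gpx8 act in the endoplasmic reticulum, where they use hydrogen peroxide in oxidative protein folding. Gpx7 (chromosome 4, 108400390 to 108406961, minus strand) was at 11.4 and 14.1 FPKM in knockout tumours and at 11.5 and 11.1 FPKM in wild-type tumours. Gpx8 (chromosome 13, 113042753 to 113046410, minus strand) was at 33.2 and 25.8 FPKM in knockout tumours and at 21.2 and 26.6 FPKM in wild-type tumours. The genotypes overlapped for both genes. The log2 fold changes were 0.16 for Gpx7, with a 95% interval of -0.17 to 0.49, and 0.29 for Gpx8, with an interval of -0.12 to 0.70 (limma adjusted p = 0.618 and 0.459).

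**Figure D3:**
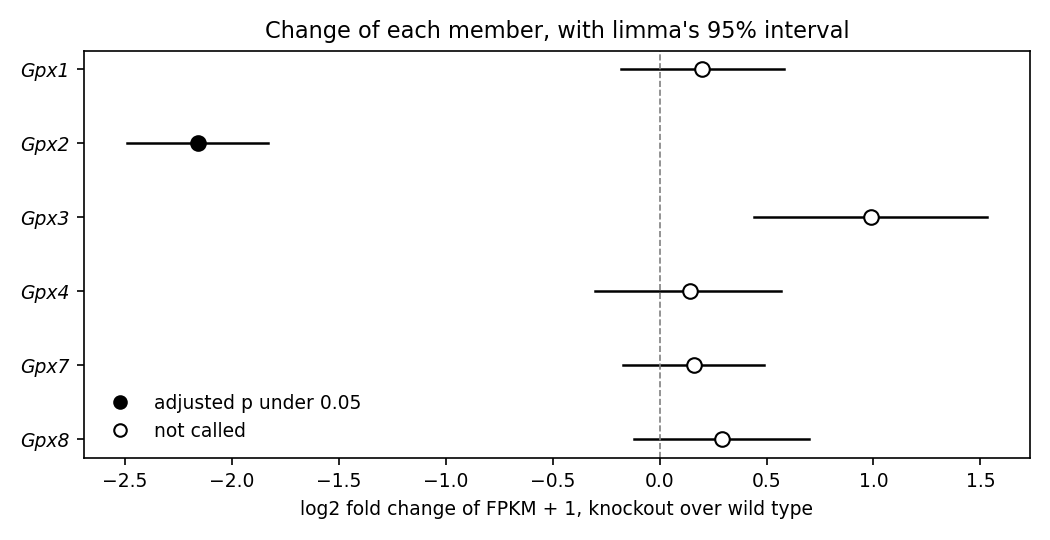
Log2 fold change of FPKM + 1, knockout over wild type (horizontal axis), for each member, with limma's 95% interval as a line, filled where the adjusted p was under 0.05. Gpx2 at -2.16 is the filled point, and the intervals of Gpx1, Gpx4, Gpx7 and Gpx8 span 0.

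The change of Gpx2 was set against that of each other member in 1 fit on within-library differences, adjusted over all genes. The change of a member minus that of Gpx2 was 2.36 for Gpx1, 3.15 for Gpx3, 2.30 for Gpx4, 2.32 for Gpx7 and 2.45 for Gpx8 on the log2(FPKM + 1) scale. Standard errors lay between 0.16 and 0.26, and limma's adjusted p between 8.39e-06 and 1.33e-05. Every one of these differences was called, but so was a difference in that direction for 99.8% of the other tested genes. The test therefore separates Gpx2 from its relatives and says nothing particular about them.

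As a sum, the family was higher in knockout tumours while Gpx2 was lower. The 6 members summed to 1264 and 1344 FPKM in the knockout libraries and to 947 and 1118 FPKM in the wild-type ones. The means were 1304 ± 56.4 FPKM in knockout and 1033 ± 120 FPKM in wild-type tumours (SD, n = 2 each), a ratio of 1.26, given as a description with no test. Gpx3 made 183 of the difference of 271 FPKM between the means, Gpx1 51.1 and Gpx4 38.5, and Gpx2 -8.23. Without Gpx3 the sums were 962 and 912 FPKM in the knockout libraries and 735 and 961 FPKM in the wild-type ones, and the genotypes overlapped.

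Gpx2 was a minor part of the family in either genotype. It made 0.115% and 0.095% of the family total in knockout 1 and 2, against 0.982% and 0.885% in wild type 1 and 2. Gpx1, Gpx3 and Gpx4 together made 96.4% and 96.9% in the knockout libraries and 95.6% and 95.7% in the wild-type libraries. Gpx3 alone made 23.9% and 32.2% in the knockout libraries and 22.4% and 14% in the wild-type libraries. The cysteine enzymes Gpx7 and Gpx8 together made 3.53% and 2.97% in the knockout libraries and 3.44% and 3.37% in the wild-type libraries, so that their share overlapped.

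**Figure D4:**
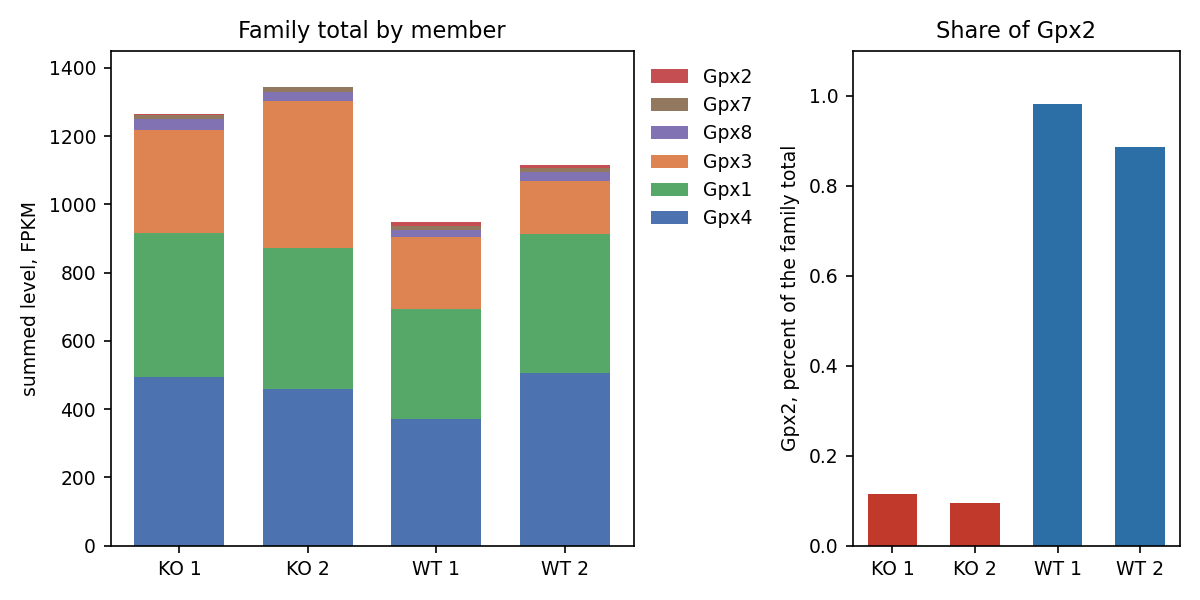
Left, summed FPKM of the 6 members in each library, stacked by member; right, Gpx2 as a percentage of that sum. The totals are 1264 and 1344 FPKM in the knockout libraries and 947 and 1118 FPKM in the wild-type ones, and the share of Gpx2 is 0.095% to 0.115% in knockout and 0.885% to 0.982% in wild type.

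The order of the major members depended on the gene length used. As deposited, per length, Gpx4 was the highest in all 4 libraries, with 36.7% of the family total in knockout and 42.3% in wild-type tumours, against 31.9% and 35.2% for Gpx1. The length inferred from the values is 678 bases for Gpx4, which is the mean over its 7 annotated transcripts, short ones included, while its coding transcript is 995 bases long. With each gene's longest coding transcript as the length, an alternative chosen after the data were seen, Gpx1 was the highest in all 4 libraries, at 40.1% in knockout and 43.4% in wild-type tumours, against 32.4% and 36.6% for Gpx4. In reads not divided by length, Gpx3 was the highest in knockout 2, at 36.6% against 34.8% for Gpx1, and Gpx1 was the highest in the other 3 libraries. On that scale Gpx3 averaged 32.2% in knockout and 21.3% in wild-type tumours, and Gpx4 averaged 27.5% in knockout and 32.4% in wild-type tumours. Gpx2, for which the length inferred from the values is that of its coding transcript (1067 bases), was with coding lengths at 0.136% in knockout and 1.19% in wild-type tumours. Ratios of a gene's FPKM between libraries do not depend on its length. Changes on the log2(FPKM + 1) scale do to some degree, because of the added 1, and so does the filter at 1 FPKM.

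By the Euclidean distance between log2(FPKM + 1) values centred on each gene's mean over the 4 libraries, the genes most like Gpx2 were Gstm1 (0.283), Igkv9-120 (0.411), Gsta3 (0.518), Wfdc10 (0.581) and Marco (0.814). Gstm1 and Gsta3 are glutathione S-transferases, Igkv9-120 is an immunoglobulin segment, and Marco is a scavenger receptor of alveolar macrophages. Igkv9-120 rests on few reads, 9 and 6 in the knockout libraries and 55 and 47 in the wild-type ones. Wfdc10 rests on fewer, 3 and 2 in the knockout libraries and 25 and 36 in the wild-type ones. Marco was at 3.78 and 1.34 FPKM in knockout and at 20.9 and 15.4 FPKM in wild-type tumours (limma adjusted p = 0.0852). With 4 libraries in 2 genotypes, closeness says little beyond a fall of similar size.

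Other selenoproteins were examined because Gpx1 to Gpx4 share their route of synthesis. Of 16 tested, 0 were called in either direction, with a median log2 fold change of 0.10. With an unadjusted limma p under 0.05, Selenok and Selenoh were higher and Txnrd1 and Selenoi lower. These 2 and 2 of 16 stand against 8.36% and 7.01% of all tested genes. Thioredoxin reductase 1, Txnrd1, was the most changed, at 23.3 and 26.8 FPKM in knockout and at 42.6 and 41.9 FPKM in wild-type tumours (limma adjusted p = 0.102). Of 10 tested genes of selenocysteine insertion and selenium supply, 0 were called, with a median of 0.00. By an unadjusted limma p under 0.05, 1 was higher and 0 were lower, against the same shares of all tested genes. Scly, the selenocysteine lyase that recovers selenium, was at 18.2 and 20 FPKM in knockout and at 14.7 and 16.1 FPKM in wild-type tumours (limma adjusted p = 0.311).

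Genes that supply and recycle glutathione gave no call among 16 tested (limma, adjusted p under 0.05). The 16 include the NADPH producers G6pdx, Pgd, Idh1 and Me1. At an unadjusted limma p under 0.05, 1 was higher and 4 were lower, against 8.36% and 7.01% of all tested genes. The lower ones were Ggt1, Slc7a11, G6pdx and Pgd, and the median log2 fold change of the 16 was -0.19. For 10 of the 16 the highest knockout value lay below the lowest wild-type value, against 25.4% of all tested genes, and for 2 the order was the opposite, against 22.7%. Ggt1, the transpeptidase that breaks down extracellular glutathione, was at 2.81 and 1.5 FPKM in knockout and at 6.32 and 6.17 FPKM in wild-type tumours (limma adjusted p = 0.12). Slc7a11, the cystine transporter, was at 0.763 and 0.726 FPKM in knockout and at 2.01 and 1.72 FPKM in wild-type tumours. Chac1, which degrades glutathione inside the cell, went the other way, at 1.09 and 2.24 FPKM in knockout and at 0.733 and 0.662 FPKM in wild-type tumours (limma unadjusted p = 0.043, adjusted p = 0.311). Glutathione reductase, Gsr, which returns oxidised glutathione to the peroxidases, was at 47.5 and 60.9 FPKM in knockout and at 61.2 and 66 FPKM in wild-type tumours. The genotypes did not overlap for Ggt1, Slc7a11, Chac1 or Gsr, and none of these passed the adjusted threshold.

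Other enzymes that remove peroxides or superoxide gave no call among 15 tested, with a median of 0.03. At an unadjusted limma p under 0.05, 1 was higher and 3 were lower, against 8.36% and 7.01% of all tested genes. Catalase, Cat, was at 271 and 284 FPKM in knockout and at 402 and 333 FPKM in wild-type tumours (limma adjusted p = 0.275). Srxn1, which repairs over-oxidised peroxiredoxins, was at 9.14 and 11.1 FPKM in knockout and at 16.6 and 15.8 FPKM in wild-type tumours (limma adjusted p = 0.149). The extracellular superoxide dismutase Sod3 was at 18.7 and 34.9 FPKM in knockout and at 16.1 and 10.9 FPKM in wild-type tumours (limma adjusted p = 0.268), the same order of libraries as Gpx3.

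Among 6 tested glutathione transferases with peroxidase activity of their own, 1 fell and 0 rose, against 0.038% and 0.0761% of all tested genes. The median was -0.18. The gene that fell was Gsta3, at 2.34 and 3.38 FPKM in knockout and at 20.6 and 22 FPKM in wild-type tumours (limma adjusted p = 0.0108). Its log2 fold change of -2.54 was close to that of Gpx2. The microsomal transferase Mgst1, far more abundant, was at 342 and 344 FPKM in knockout and at 393 and 487 FPKM in wild-type tumours (limma adjusted p = 0.342).

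Of 14 tested genes of ferroptosis around Gpx4, 0 were called, with a median of -0.02. At an unadjusted limma p under 0.05, 0 were higher and 1 lower (Slc7a11), against 8.36% and 7.01% of all tested genes. Acsl4, which loads membranes with oxidisable fatty acids, was at 103 and 138 FPKM in knockout and at 152 and 132 FPKM in wild-type tumours, and the genotypes overlapped. Of 10 tested genes of oxidative folding in the endoplasmic reticulum, the compartment of Gpx7 and Gpx8, 0 were called, 0 had an unadjusted limma p under 0.05, and the median was -0.00. Prdx4, the peroxiredoxin of that compartment, was at 67.1 and 111 FPKM in knockout and at 60.7 and 69.6 FPKM in wild-type tumours, with overlap.

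Beside 19 tested NRF2 targets outside the family, the fall of Gpx2 was exceeded by that of Gsta3 alone. Of the 19, 2 fell (Gsta3 and Gstm1) and 0 rose (limma, adjusted p under 0.05), where 0.038% and 0.0761% of all tested genes were called. At an unadjusted limma p under 0.05, 8 were lower and 0 higher, against 7.01% and 8.36% of all tested genes, and the median log2 fold change was -0.28. Gstm1 was at 62.1 and 52.4 FPKM in knockout and at 200 and 247 FPKM in wild-type tumours (limma adjusted p = 0.024). Other targets changed little, such as Hmox1 (-0.10), Cbr1 (-0.05) and Ephx1 (0.13), for which the genotypes overlapped. Nqo1, at a mean of 0.44 FPKM in knockout and 0.509 FPKM in wild-type tumours, was listed but did not pass the filter. In ratios of mean FPKM, wild type exceeded knockout 7.02-fold for Gpx2, 7.43-fold for Gsta3 and 3.91-fold for Gstm1.

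**Figure D5:**
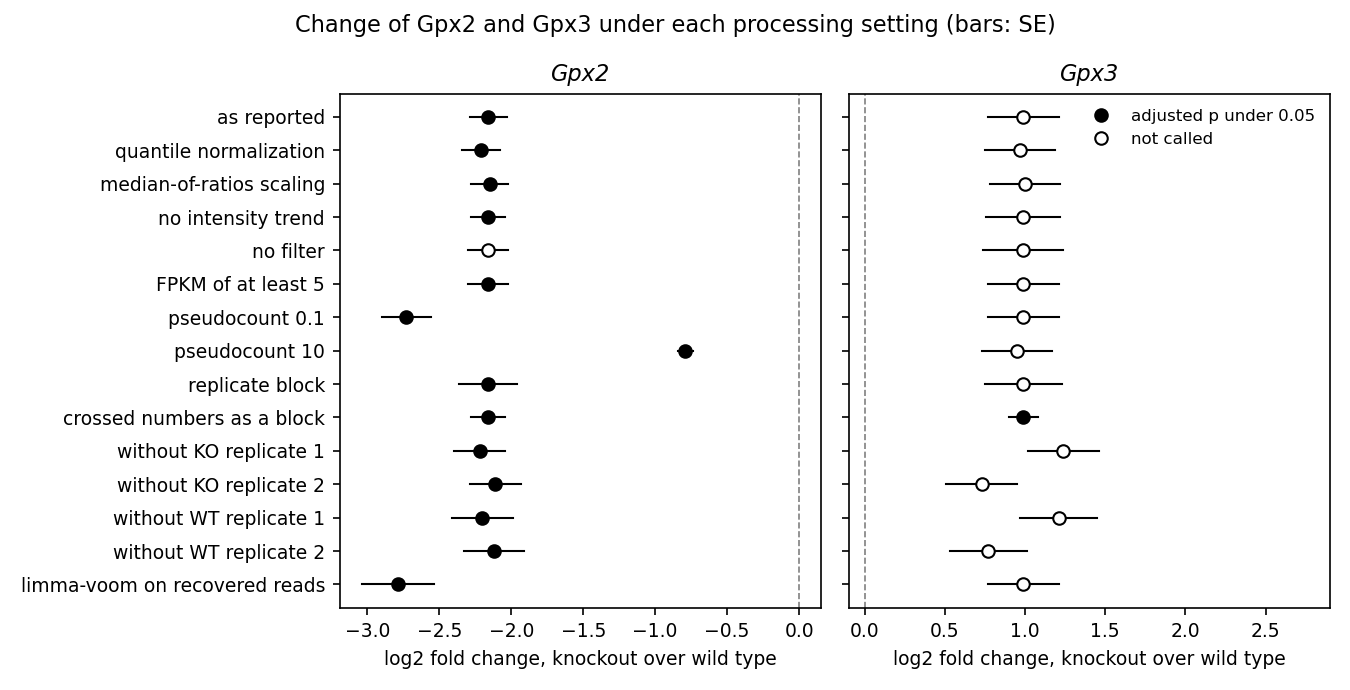
Log2 fold change, knockout over wild type (horizontal axis), of Gpx2 (left) and Gpx3 (right) under each processing setting, with bars for 1 standard error, filled where the adjusted p was under 0.05. Gpx2 is filled in 13 of 14 alternatives, with values from -2.79 (limma-voom) to -0.79 (pseudocount 10), and Gpx3 in 1 of 14, with values from 0.73 to 1.24.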

How the data were processed

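Gene expression was measured by RNA sequencing in 4 libraries. The authors deposited FPKM for each gene. Per the submitters' processing notes, the build was mm10 and TopHat2 and DESeq2 were used, in roles and versions that the notes do not state. How reads were counted, with which annotation and lengths and whether by strand, is not given in the sources used here. Of 35275 identifiers, 34490 matched a symbol in GENCODE M21 (GRCm38).

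Whole reads were recovered for 21600 of 21601 genes above 0 (tolerance 0.0002 reads plus 5e-09 per read and the file's rounding); 0 of 500 genes disturbed by up to 1% fitted. The length was the rounded mean over annotated transcripts for 12161 genes, another annotated length for 1068 (Gpx2 among them), and otherwise the smallest that fitted (Gpx1 and Gpx8 among them), so those reads could be undercounted. These lengths are inferred from the values.

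Limma 3.58.1 (R 4.3.3) was fitted to log2(FPKM + 1) of 13147 genes, with an intensity trend, 2 degrees of freedom left and 4.12 added by the prior. Differences from Gpx2 were fitted without the trend. With 2 against 2, an exact two-sided permutation test cannot go below 0.333. Scripts were tested on simulated data. Alternatives were quantile and median-of-ratios scaling, no trend, other filters and pseudocounts, replicate blocks, leaving out each library, and, added later, limma-voom on recovered reads and coding lengths. Leaving out a library kept the set of genes tested.

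The members, the 8 pathway and 12 cell type lists and the tests were chosen with earlier results of these data known. Named genes were, by rule, the members, Nfe2l2, called genes and up to 3 others with the largest change of each pathway list, the 2 highest markers of each cell type list and the 5 genes nearest to Gpx2. Gsr, Cat, Selenoh, G6pdx, Pgd, Idh1, Me1, Hmox1, Cbr1, Ephx1, Nqo1 and the choice among the rest came after the values were seen. A planned erythroid marker is not reported here and is left out of that list.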

Additional observations from a re-analysis of the deposited data

How the results depend on the processing

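The fall of Gpx2 was called in 13 of 14 alternatives, with log2 fold changes from -2.79 to -0.79 and limma adjusted p from 0.00199 to 0.21. It was -2.16 and not called with no filter (adjusted p = 0.21), where 21601 genes were tested. Leaving out a library gave -2.22 to -2.11. Gpx1, Gpx4, Gpx7 and Gpx8 were called in none of 14. Gpx3 was called, at 0.99 (limma adjusted p = 0.00864), only with crossed numbers as a block, and its adjusted p ran up to 0.371 over the alternatives, with 0.0501 without knockout 1. Gpx4 ran from -0.08 to 0.36 as libraries were left out.

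The count of called genes, 15, was 1 with no filter, 6 with limma-voom, 65 at an adjusted p under 0.1, and 10 to 221 with a library left out. With the replicate number as a block it was 69, and with crossed numbers 848; same-numbered libraries deviated in opposite directions (correlation -0.306 across genes), and the labels do not say that numbers mark pairs. The replicate number as a block changed no call of a member, and crossed numbers added that of Gpx3.

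With coding lengths the family total was 1006 FPKM in knockout and 813 FPKM in wild type, and the share of Gpx2 was 0.136% and 1.19%; from reads not divided by length it was 0.124% in knockout and 1.13% in wild type. Signs turned, with no call, as libraries were left out for Mgst3 (-0.23 to 0.02), Cdh5 (-0.12 to 0.97), Hspa5 (-0.08 to 0.36), Sftpc (-0.01 to 0.24, and 0.00 with quantile normalization) and Cd79b (-0.09 to 0.22, with -0.06 without wild type 1). The cause of these shifts was not tested. With 23 and 28 reads in the knockout libraries, counting error alone leaves the Gpx2 ratio between 0.105 and 0.191.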
